A study of Rattus norvegicus with 4 samples.

Results

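The 9 genes described here, Mdm2, Cdkn1a, Cdkn1b, Cdkn2c, Gadd45a, Gadd45b, Tp53inp1, Ccng1 and Btg2, are well-known targets of the transcription factor p53 or inhibitors of the cyclin-dependent kinases (CDKs). They were taken by name from the 17147 gene names in the table. All 9 were present and all 9 were among the 12689 genes tested. Their RNA was measured in neonatal rat ventricular myocytes, primary heart muscle cells taken from the left ventricle of newborn rats and cultured without serum in a supplemented medium. The 2 vehicle libraries came from cells given the solvent DMSO and the 2 TMP195 libraries from cells given 3 µM TMP195, in both cases for 48 h. TMP195 is a small molecule that blocks the catalytic site of the class IIa histone deacetylases. The labels give no strain, sex or exact age, no transgene, and no statement that the 2 libraries of a group came from separate cultures. Any p-value here thus reflects how far these libraries vary, which could be technical variation alone.

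p53 is a stress-activated transcription factor that is held low by the ubiquitin ligase encoded by its own target Mdm2. Its other targets slow the cell cycle, repair DNA or favour cell death. CDK inhibitors fall into the Cip/Kip group (p21, p27 and p57), which binds cyclin-CDK complexes, and the INK4 group (p15, p16, p18 and p19), which binds CDK4 and CDK6. Ventricular myocytes leave the cell cycle around birth, and p21 and p27 are known inhibitors in that tissue. Several genes of the set also respond to signals other than p53.

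The design holds 1 comparison, TMP195 against vehicle, on the effect of class IIa inhibition on myocyte transcripts. Tp53inp1, Gadd45a, Mdm2 and Cdkn1a rose with TMP195, by 1.83-fold, 1.56-fold, 1.38-fold and 1.29-fold. Cdkn2c fell to 0.484 times its vehicle level. Cdkn1b, Gadd45b, Ccng1 and Btg2 did not pass the test. Thus 4 of 9 were higher and 1 of 9 was lower at a limma adjusted p under 0.05, beside 9.93% of all genes tested higher and 10.3% lower. The same 4 genes had both TMP195 libraries above both vehicle libraries, and Cdkn2c had both below, while 28.0% and 28.7% of all genes tested separated in these directions. The median log2 fold change of the 9 genes was 0.14, and that of all genes tested was -0.01. With 2 libraries against 2, an exact two-sided permutation test of a single gene cannot go below p = 0.333, so each p here comes from limma, which borrows the spread across genes. All 5 calls were lost in a fit with no filter on low values (limma adjusted p from 0.0990 for Gadd45a to 0.433 for Cdkn1a, with the same fold changes).

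**Figure D1:**
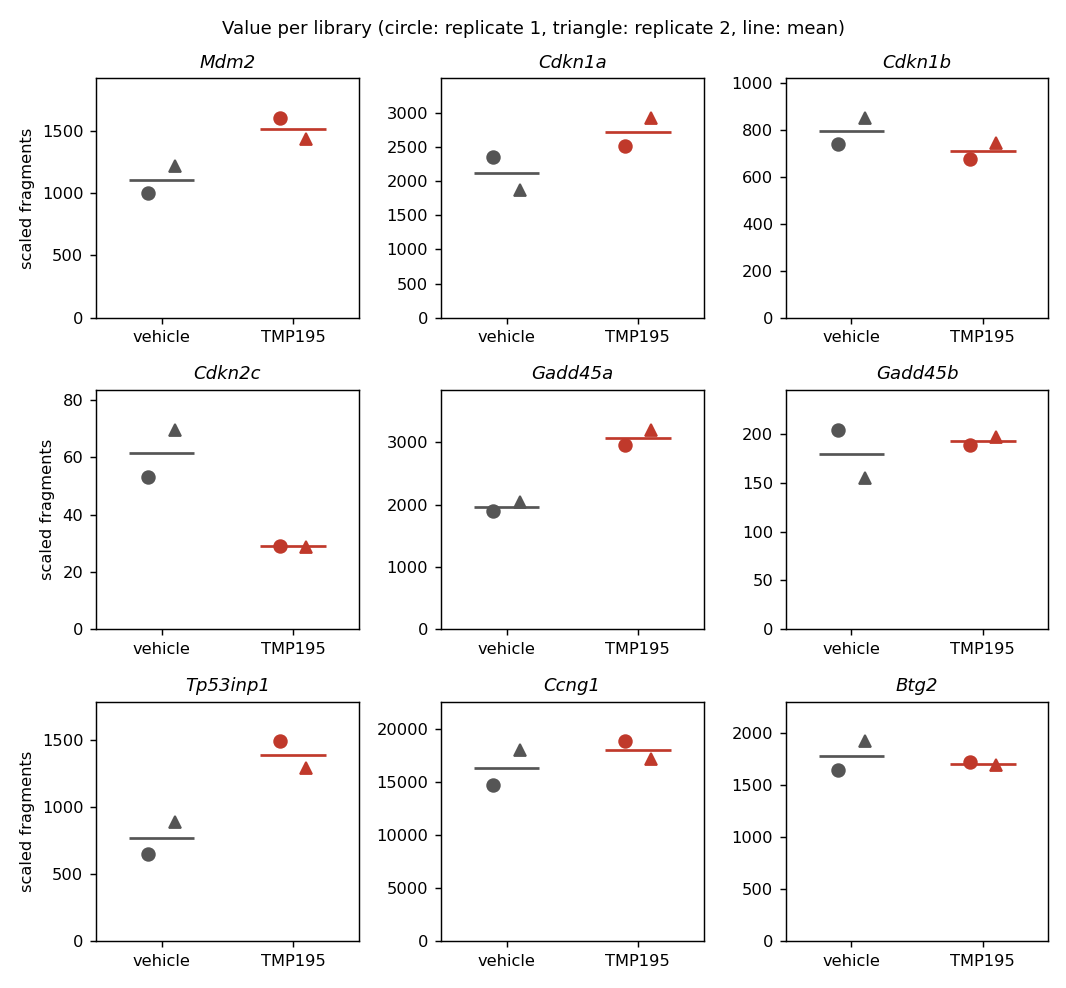
Scaled fragments (vertical axes, from 0, one panel per gene) in the 2 vehicle and the 2 TMP195 libraries, with circles for replicate 1, triangles for replicate 2 and a line at the group mean. Mdm2, Cdkn1a, Gadd45a and Tp53inp1 have both TMP195 points above both vehicle points, Cdkn2c has both below, and the groups of the other 4 genes overlap.

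**Figure D2:**
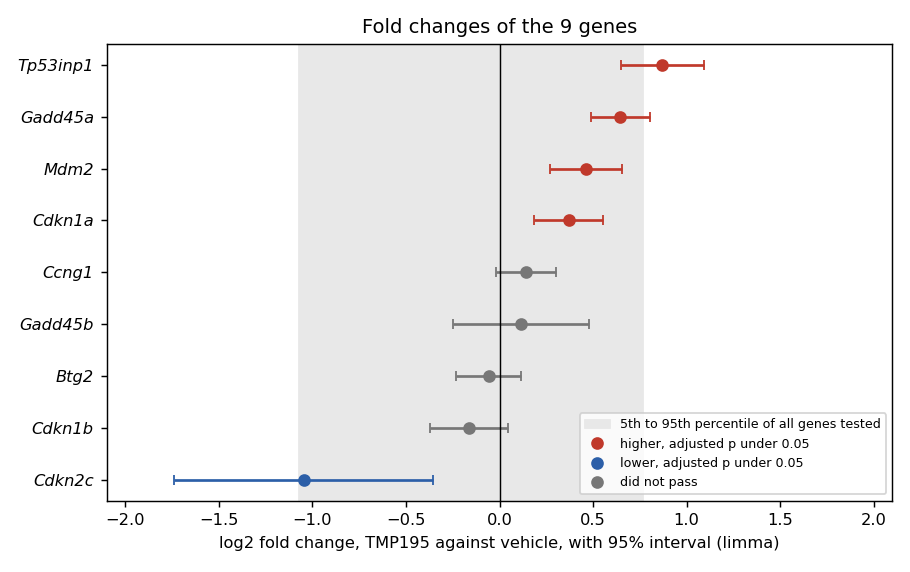
Log2 fold change of each of the 9 genes with its 95% limma interval, coloured by the call. The grey band spans the 5th to the 95th percentile of all genes tested, from -1.07 to 0.77, and only Tp53inp1, at 0.87, has its estimate outside it.

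Deposited values are fragment counts scaled by the authors to a common depth, and are called scaled fragments here. The 4 libraries held 11768452 to 14232152 fragments. Marker genes of cardiac myocytes were abundant in all 4. The 7 measured summed to 350260 to 356900 scaled fragments with vehicle and to 331090 to 332840 with TMP195, and of these 7 genes 2 rose, 3 fell and 2 did not pass. Markers of other cells moved with the treatment as well. The 10 fibroblast markers summed to 94245 to 97634 with vehicle and to 69667 to 72611 with TMP195, and 4 of them fell while 6 did not pass. Of 7 smooth muscle and mural markers 4 fell, and the 7 summed to 16769 and 16970 with vehicle and to 12120 and 12998 with TMP195. Of 7 endothelial markers 2 fell and 1 rose, and 0 of 6 leukocyte markers passed the limma test or had an unadjusted p under 0.05. All 6 proliferation genes fell, and they summed to 5319 and 5283 with vehicle and to 2464 and 2527 with TMP195. No measured marker in these lists was at 0 in all libraries. Among all genes tested, 9.93% were higher and 10.3% lower. In RNA from whole cultures, fewer cells of a type and less RNA per cell cannot be told apart, and the part of these changes in the values below was not tested.

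Promoter windows, running from 250 bases before to 50 bases after a gene's RefSeq start (assembly GRCr8), were at hand for 8 of the 9 genes, all except Tp53inp1. They were searched on both strands for the p53 half-site, the palindrome that forms one arm of a p53 binding element, with no mismatch allowed. The windows of Cdkn1a, Gadd45a, Ccng1 and Cdkn2c each held 1 match, printed in capitals below, 4 of 8 windows in all. Of all 33469 promoter windows of this length, 7.98% held a match. Of these 4 genes Cdkn1a and Gadd45a rose, Cdkn2c fell and Ccng1 did not pass, so a match went with no single direction. The windows of Mdm2, Cdkn1b, Gadd45b and Btg2 held no match, and sequence outside the windows was not searched for any gene. The sequences are shown because they place the match relative to the start in genes whose calls differed. Whether these 4 genes differed in response was not tested. A match is a string of letters and no measure of binding.
Cdkn1a: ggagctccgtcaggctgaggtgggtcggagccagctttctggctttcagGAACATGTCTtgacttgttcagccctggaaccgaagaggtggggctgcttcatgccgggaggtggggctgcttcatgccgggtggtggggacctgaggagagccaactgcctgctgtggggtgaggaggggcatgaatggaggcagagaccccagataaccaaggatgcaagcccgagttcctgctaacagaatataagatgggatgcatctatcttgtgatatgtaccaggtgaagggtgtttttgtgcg
Gadd45a: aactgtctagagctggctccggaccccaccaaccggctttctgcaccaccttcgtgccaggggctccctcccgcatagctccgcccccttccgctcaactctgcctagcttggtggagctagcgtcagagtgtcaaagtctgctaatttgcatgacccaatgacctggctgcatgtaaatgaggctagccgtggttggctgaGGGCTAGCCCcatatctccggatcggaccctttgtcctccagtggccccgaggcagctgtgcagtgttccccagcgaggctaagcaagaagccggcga
Ccng1: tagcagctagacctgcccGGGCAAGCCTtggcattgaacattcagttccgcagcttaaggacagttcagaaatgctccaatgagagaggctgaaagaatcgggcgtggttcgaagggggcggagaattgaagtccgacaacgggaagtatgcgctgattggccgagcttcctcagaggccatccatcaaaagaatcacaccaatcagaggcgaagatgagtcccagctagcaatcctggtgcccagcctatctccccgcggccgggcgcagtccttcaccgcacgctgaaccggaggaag
Cdkn2c: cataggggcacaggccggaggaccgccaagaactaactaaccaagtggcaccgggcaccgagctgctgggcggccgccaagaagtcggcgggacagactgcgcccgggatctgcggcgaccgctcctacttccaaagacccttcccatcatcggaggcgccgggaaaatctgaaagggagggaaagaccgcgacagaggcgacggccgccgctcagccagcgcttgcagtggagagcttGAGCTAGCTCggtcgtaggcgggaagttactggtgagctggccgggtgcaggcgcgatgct

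The Cdkn1a window lies at chr20:7150682-7150981 on the plus strand, with its match at bases -201 to -192 from the start. Gadd45a's window is at chr4:97486750-97487049 on the minus strand, with the match at bases -48 to -39, just upstream of the start. That of Ccng1 is at chr10:25684827-25685126, also on the minus strand, with the match at bases -232 to -223. In Cdkn2c, at chr5:129644842-129645141 on the minus strand, the match ends at base -2 and begins at base -11. Among general promoter elements, the CCAAT box (CCAAT) was found in 6 of the 8 windows, beside 37.5% of all windows, and the GC box (GGGCGG) in 7 of 8, beside 33.1%. Cdkn1a lacked both within this window. The TATA box (TATAAA) was in 0 of 8, and in 14.2% of all windows. The cyclic AMP response element (TGACGTCA) occurred once, in Btg2, and the FoxO motif (GTAAACA) once, in Mdm2, beside 1.83% and 3.78% of all windows.

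Mdm2, the ligase that marks p53 for degradation and closes its feedback loop, was at 998 and 1217 scaled fragments in vehicle libraries 1 and 2. With TMP195 it stood at 1601 and 1437. Both treated libraries lay above both controls, and the smallest gap between the groups was 1.18-fold, against 1.22-fold between the vehicle libraries themselves. The mean went from 1108 ± 155 to 1519 ± 116 (SD, n = 2 each), which on the log2 scale is a change of 0.46 (SE 0.09, 95% interval 0.27 to 0.65, limma adjusted p = 0.000524). The log2 fold change was 0.32 without vehicle 1, 0.60 without vehicle 2, 0.38 without TMP195 1 and 0.54 without TMP195 2. The limma adjusted p was 0.244, 0.149, 0.175 and 0.170 in these fits. When genes with a mean value under 10 were left out of the same 4 fits, a setting chosen after the data were seen, the call was kept in all 4. In these 4 fits limma had 1 residual degree of freedom beside 116 prior degrees of freedom without TMP195 2 and an infinite number in the others, so the spread came almost wholly from other genes. Log2 profiles over the 4 libraries, each less its own vehicle mean, were also compared, so the level of a gene played no part. Of 8234 other genes averaging at least 100 scaled fragments, the 3 nearest to Mdm2 were Clcn3, Atp13a3 and Manba. Their Euclidean distances were 0.0255, 0.0383 and 0.0665 (log2 units).

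Tp53inp1 encodes a p53-induced nuclear protein that takes part in cell death and autophagy. It had the largest increase of the 9 genes. Its values were 649 and 886 with vehicle and 1488 and 1293 with TMP195, so the lower treated library was 1.46 times the higher control. The vehicle libraries differed by 1.37-fold, the largest such spread of the 9 genes. The mean went from 767 ± 168 to 1390.3 ± 138 (SD, n = 2 each), or 0.87 on the log2 scale (SE 0.11, limma adjusted p = 4.86e-07). Without vehicle 1, which was the lower control, the log2 fold change was 0.65, and without vehicle 2 it was 1.10. It was 0.77 without TMP195 1 and 0.97 without TMP195 2. The limma adjusted p of these 4 fits was 0.183, 0.135, 0.0779 and 0.123, and the call was kept in all 4 when genes with a mean value under 10 were left out.

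Gadd45a and Gadd45b are stress-induced proteins of one family that bind p53 effectors such as p21 and signal to stress kinases. Gadd45a is a classical p53 target, whereas Gadd45b is known as a target of NF-kB and TGF-beta signalling. Gadd45a was at 1894 and 2034 scaled fragments with vehicle and at 2949 and 3197 with TMP195. The libraries of each group were close, 1.07-fold apart with vehicle and 1.08-fold with TMP195, and the groups lay 1.45-fold apart at their nearest. Its mean rose from 1964 ± 99.0 to 3073 ± 175 (SD, n = 2 each), and its log2 fold change of 0.65 (SE 0.08) had the smallest p of the 9 genes (limma adjusted p = 1.97e-07). With one library left out the log2 fold change stayed between 0.59 and 0.70. The limma adjusted p was 0.183 without vehicle 1, 0.135 without vehicle 2 and 0.0727 without TMP195 2, and the call was kept without TMP195 1. It was kept in all 4 such fits when genes with a mean value under 10 were left out.

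Gadd45b had far fewer fragments, at 204 and 155 with vehicle and at 188 and 197 with TMP195. Both treated libraries fell between the 2 controls. The log2 fold change was 0.11 (SE 0.18, 95% interval -0.25 to 0.48, limma adjusted p = 0.721), and the interval ends below the estimate for Gadd45a. The sign turned without vehicle 2, to -0.084. The third gene of the family, Gadd45g, was at 1334 and 1333 with vehicle and at 1541 and 1557 with TMP195, with no overlap and a log2 fold change of 0.22 that did not pass (SE 0.08, limma adjusted p = 0.0623). Whether the 3 genes differed in response was not tested.

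Cdkn1a encodes p21, the CDK inhibitor through which p53 arrests the cell cycle. It was at 2347 and 1875 scaled fragments with vehicle and at 2517 and 2917 with TMP195. The groups did not overlap, but the lower treated library was only 1.07 times the higher control, less than the 1.25-fold between the controls. The mean went from 2111 ± 334 to 2717 ± 283 (SD, n = 2 each), with a log2 fold change of 0.37 (SE 0.09, 95% interval 0.18 to 0.55, limma adjusted p = 0.00314). This call was lost in the main fit whichever library was left out. Without vehicle 2 the log2 fold change was 0.21 and did not pass even when genes with a mean value under 10 were left out (limma adjusted p = 0.145). Without vehicle 1 it was 0.53, without TMP195 1 it was 0.48 and without TMP195 2 it was 0.26, with limma adjusted p of 0.196, 0.116 and 0.422. These last 3 fits kept the call when genes with a mean value under 10 were left out. The profiles nearest to Cdkn1a by the same measure were those of Mapk8ip3, Fam195b and Thop1, at distances of 0.0411, 0.0655 and 0.0691.

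Cdkn1b encodes p27, the other Cip/Kip inhibitor of the set, whose level is set largely through degradation of the protein. Its values were 743 and 851 with vehicle and 678 and 747 with TMP195, so the groups overlapped by a small margin. The log2 fold change was -0.16 (SE 0.10, 95% interval -0.37 to 0.05, limma adjusted p = 0.298). It ranged from -0.26 to -0.06 with one library left out.

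Cdkn2c encodes p18, an INK4 inhibitor of CDK4 and CDK6. It was the least abundant of the 9 genes, at 53.1 and 69.5 scaled fragments with vehicle and at 29.0 and 28.8 with TMP195. Both treated libraries were at about 0.546 times the lower control or less. These values rest on 56 and 66 fragments (exact Poisson 95% intervals 42.3 to 72.7 and 51.0 to 84.0) and on 33 and 30 fragments (22.7 to 46.3 and 20.2 to 42.8). The intervals cover counting error only, and that of vehicle 1 overlaps those of both TMP195 libraries. The mean fell from 61.3 ± 11.6 to 28.9 ± 0.160 (SD, n = 2 each), with a log2 fold change of -1.05 (SE 0.34, 95% interval -1.74 to -0.36, limma adjusted p = 0.0258). The log2 fold change was -1.24 without vehicle 1, -0.86 without vehicle 2, -1.05 without TMP195 1 and -1.04 without TMP195 2. The limma adjusted p was 0.194, 0.240, 0.178 and 0.231 in these fits. With genes of a mean value under 10 left out, the call was kept only without vehicle 1, and was lost without vehicle 2 (limma adjusted p = 0.161), TMP195 1 (0.0643) and TMP195 2 (0.0699). Cdkn2c moved in the direction of the 6 proliferation genes given above, and the part of cell division in its change was not tested.

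Ccng1 and Btg2 are classical p53 targets that did not pass the test, and whether they differed from Mdm2 in response was not tested. Ccng1, which encodes the atypical cyclin G1, was at 14742 and 17979 with vehicle and at 18818 and 17149 with TMP195, so the higher control lay above the lower treated library. Its log2 fold change was 0.14 (SE 0.08, 95% interval -0.02 to 0.30, limma adjusted p = 0.220). The log2 fold change was -0.0012 without vehicle 1, the lowest library, 0.29 without vehicle 2, 0.075 without TMP195 1 and 0.21 without TMP195 2. Ccng1 passed in 3 of 19 alternative fits. Without vehicle 2 it passed when genes with a mean value under 10 or under 100 were left out (limma adjusted p = 0.0315 and 0.0265). Without TMP195 2 it passed when those under 100 were left out (limma adjusted p = 0.0423), and not at 10 (0.0524). Btg2, an antiproliferative partner of the CCR4-NOT deadenylase, was at 1647 and 1922 with vehicle and at 1722 and 1697 with TMP195. Both treated libraries lay between the controls. The log2 fold change of Btg2 was -0.06 (SE 0.08, 95% interval -0.23 to 0.11, limma adjusted p = 0.696), and it was 0.053 without vehicle 2.

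**Figure D3:**
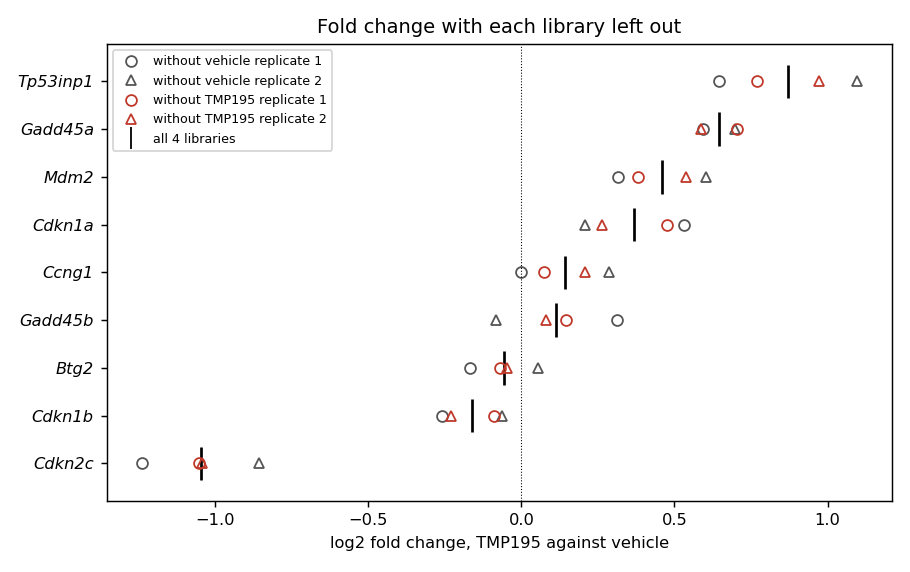
Log2 fold change of the 9 genes over all 4 libraries (black line) and with each library left out (open symbols, grey for a vehicle and red for a TMP195 library). The estimates of Gadd45a stay between 0.59 and 0.70, those of Cdkn1a run from 0.21 to 0.53, and those of Ccng1, Gadd45b and Btg2 reach or cross 0.

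In the authors' deposited table, which gives an unadjusted p-value per gene, Gadd45a had p = 0.0300 and Tp53inp1 had p = 0.0592. The other 7 genes had deposited p-values from 0.104 (Mdm2) to 0.690 (Gadd45b), including 0.158 for Cdkn2c and 0.193 for Cdkn1a. Only Gadd45a of the 9 was thus under 0.05 there. The share of all genes under 0.05 by that p-value was not computed, so the count says nothing about the 9 as a set.

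Levels of different genes were compared as FPKM, the authors' fragments per kilobase of transcript at a common depth. Ccng1 had the highest level, 388 ± 54.3 FPKM with vehicle, and Cdkn2c the lowest, 3.55 ± 0.671 (SD, n = 2 each). Between them came Gadd45a (138 ± 6.98), Cdkn1a (90.6 ± 14.3), Tp53inp1 (69.7 ± 15.2), Btg2 (54.8 ± 5.97), Cdkn1b (36.5 ± 3.48), Mdm2 (29.7 ± 4.15) and Gadd45b (11.9 ± 2.30 FPKM). Neighbours in this order separated in the vehicle libraries except Cdkn1a with Tp53inp1 and Tp53inp1 with Btg2, which overlapped. With TMP195, Tp53inp1 reached 126 ± 12.5 FPKM beside 117 ± 12.1 for Cdkn1a, and the libraries of these 2 genes overlapped. Mdm2, at 40.7 ± 3.12 FPKM, then stood above Cdkn1b, at 32.6 ± 2.25, and their libraries did not overlap. All 9 levels depend on the transcript lengths in the authors' annotation: 1 FPKM corresponded to 11.0 scaled fragments for Tp53inp1 and to 42.1 for Ccng1.

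**Figure D4:**
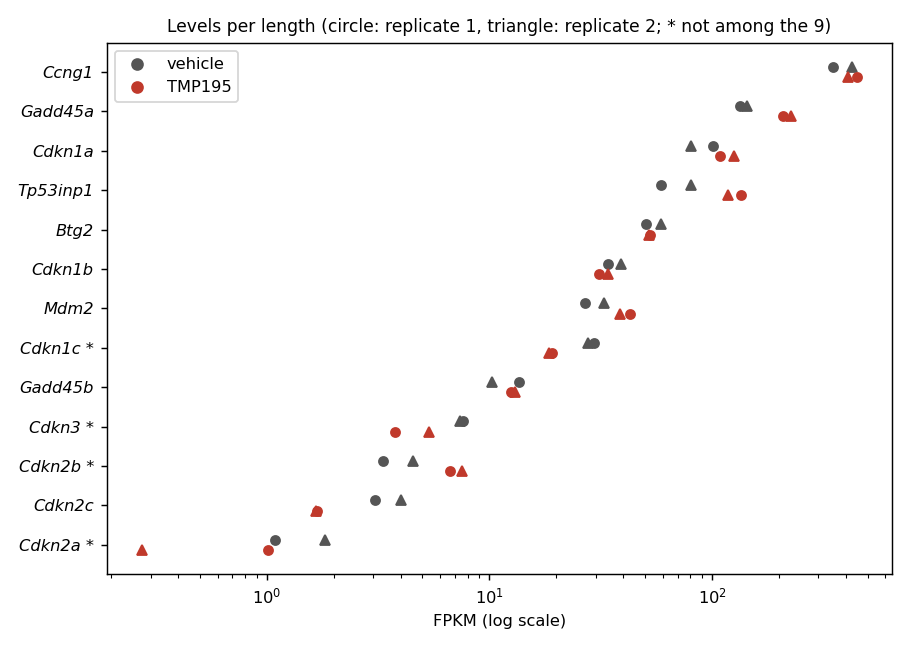
FPKM (horizontal log axis) of the 9 genes and the other CDK inhibitors measured (marked with an asterisk), in vehicle (grey) and TMP195 (red) libraries. Levels run from 388 FPKM for Ccng1 to 1.45 for Cdkn2a as vehicle means.

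CDK inhibitor genes were called in both directions. Of the 4 others measured, Cdkn1c fell, Cdkn2b rose, and Cdkn3 and Cdkn2a did not pass. That is 1 of 4 each way, beside 10.3% of all genes tested lower and 9.93% higher. Cdkn1c, which encodes p57, was at 706 and 662 scaled fragments with vehicle and at 458 and 444 with TMP195, or -0.60 on the log2 scale (SE 0.11, limma adjusted p = 0.000111). Cdkn2b encodes p15, an INK4 inhibitor induced by TGF-beta. It was at 95.8 and 132 with vehicle and at 192 and 217 with TMP195, or 0.86 on the log2 scale (SE 0.20, limma adjusted p = 0.00172). Cdkn2b and Cdkn2c, INK4 genes of low level, thus went in opposite directions, with vehicle means of 3.93 FPKM for Cdkn2b and 3.55 for Cdkn2c and TMP195 means of 7.07 and 1.67. Among the Cip/Kip genes the order Cdkn1a, Cdkn1b, Cdkn1c was kept, and the ratio of mean FPKM of Cdkn1a to that of Cdkn1b was 2.48 with vehicle and 3.57 with TMP195. Cdkn3, a phosphatase that acts on CDKs and is high in dividing cells, did not pass (log2 fold change -0.73, SE 0.32, limma adjusted p = 0.112). Cdkn2a, which encodes p16 and the Mdm2 inhibitor p19Arf, was at 1.92 to 12.6 scaled fragments (log2 fold change -1.16, SE 0.74, limma adjusted p = 0.300).

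Among 12 tested regulators of p53, 2 rose and 2 fell, beside 9.93% and 10.3% of all genes tested. The other 8 did not pass, and the median log2 fold change of the 12 was 0.17. Mdm4, the relative of Mdm2 that blocks p53 activity, rose from 347 and 345 to 441 and 464 scaled fragments (log2 fold change 0.39, limma adjusted p = 0.0228). Usp10, a deubiquitinase of p53, rose by 0.33 on the log2 scale. The damage kinase genes Chek1 (-0.80) and Atm (-0.34) fell.

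Other p53 targets did not move as a block. Among 22 tested, 5 were higher and 2 lower, beside 9.93% and 10.3% of all genes tested. The other 15 did not pass, and the median log2 fold change of the 22 was -0.06. The largest increases were in Gdf15 (1.79), a secreted stress cytokine, and Sesn2 (1.08), a sestrin that restrains mTORC1, both also known as targets of the ATF4 stress pathway. The kinase gene Plk3 rose from 176 and 127 to 243 and 305 scaled fragments (log2 fold change 0.85, limma adjusted p = 0.000679), and the death genes Tnfrsf10b (0.66) and Bax (0.41) rose too. Perp (-0.32), a desmosomal and proapoptotic protein gene, and Zmat3 (-0.36), an RNA-binding protein gene, fell.

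Paralogues of the 9 genes did not all share their direction. Among the 7 measured, 2 rose and 2 fell, beside 9.93% and 10.3% of all genes tested, and 3 did not pass. Ccng2, the relative of Ccng1 that FoxO factors induce, fell from 126 and 171 to 62.4 and 98.8 scaled fragments (log2 fold change -0.89, limma adjusted p = 0.00751). Tp53inp2, an autophagy gene, fell slightly (-0.21, limma adjusted p = 0.0280) at a mean of 13628 with vehicle, while Tp53inp1 rose. Of the antiproliferative BTG/TOB family, Tob2 (0.49) and Btg1 (0.31) rose, and Btg2 did not pass.

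Cyclins and CDKs form the complexes that p21 and p27 act on, while p18 binds only CDK4 and CDK6 among them. Of 13 measured, 6 fell and 1 rose, beside 10.3% and 9.93% of all genes tested. The other 6 did not pass, and the median log2 fold change of the 13 was -0.37. Ccna2 (-1.12) and Ccnb2 (-1.13), cyclins of S phase and mitosis, and Ccnd3 (-0.37) fell, while Ccnd2, a partner of CDK4 and CDK6, rose from 2379 to 3388 scaled fragments on average (0.51, limma adjusted p = 5.72e-06). Of 8 pocket protein and E2F genes 3 fell and 0 rose in the limma test, and E2f4 was the only one with an unadjusted p under 0.05 and a higher value (log2 fold change 0.25, limma adjusted p = 0.0779). Those that fell were Rbl1 (-0.60), Rbl2 (-0.36) and E2f7 (-1.04), and E2f1 (-0.47) did not pass. Of 7 genes that turn over p27 and p21, 5 did not pass, among them Cul4a (0.21) and Cul4b (0.16). Skp2, the F-box protein that targets p27, fell by 0.78 on the log2 scale (limma adjusted p = 0.0420), and its cofactor Cks1b rose by 0.57 (limma adjusted p = 0.000115). Of the markers given above, 4 of 10 for fibroblasts and all 6 for proliferation fell in the same libraries, and their part in these lists was not tested. Ccnb1 and Cdk1 are in both the proliferation list and the list of cyclins and CDKs, so the falls in these lists are in part the same genes.

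**Figure D5:**
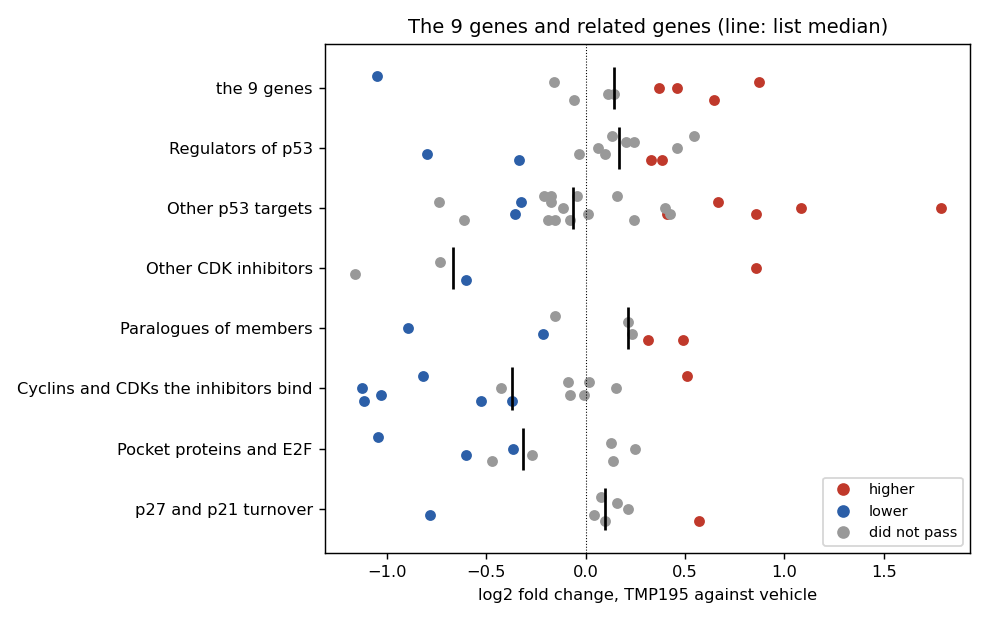
Log2 fold change of each tested gene (points, red higher, blue lower, grey not passing) in the set of 9 and in 7 lists of related genes, with a black line at each list's median. Cyclins and CDKs have a median of -0.37 and the 9 genes one of 0.14, and every list except the pocket proteins and E2F holds genes called in both directions.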

How the data were processed

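Total RNA was column-purified and sequenced after Ovation library preparation, per the labels' protocols. The submitters' processing notes name Cufflinks. Its version, the aligner, the build and the annotation: not given in the sources used here. Deposited by the authors were a signal per gene (fragments scaled by one factor per library) and FPKM values with a p-value of unstated test. The scaling was read from the values: 99.25 to 99.42% were whole multiples, within 0.1 fragment, of a step of 0.879 to 1.05. Replicates differed beyond sampling noise (chi-square 4.77 and 5.76 per gene).

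limma 3.58.1 (R 4.3.3) was fitted to log2(value + 1) of the 12689 genes averaging at least 1, with trend, treatment as the only term and Benjamini-Hochberg adjustment over all of them. This scale understates changes of low genes. There were 27.4 prior and 2 residual degrees of freedom. The 9 genes and all lists were chosen with earlier results of these data known. The text names the 9 genes, up to 4 genes of smallest p from each list, and the 3 nearest profiles of Mdm2 and Cdkn1a. Gadd45g, Bax, Tnfrsf10b, Zmat3 and E2f1 were added after their values were seen. Of the listed genes, 1 is not reported here. Older gene names were matched through RefSeq. No strand is given, so overlapping genes cannot be told apart. Alternatives were other pseudocounts, filters and scalings, limma-voom, a replicate block and each library left out.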

Additional observations from a re-analysis of the deposited data

How the results depend on the processing

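Fits with a pseudocount of 0.1, a mean value of 10 or more, scaling to the same library total, limma-voom or the replicate block kept the calls of Mdm2, Cdkn1a, Gadd45a, Tp53inp1 and Cdkn2c and called none of the other 4. With the replicate block, 4 of the 9 genes were higher and 1 lower, and 1193 and 1266 of all genes. The replicate numbers are not stated to pair the cultures, and differences between libraries 1 and 2 correlated at -0.0632 between the treatments over 8235 genes.

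Without the filter on low values, limma called 0 of the 9 genes higher and 0 lower, and 73 and 70 of all 17147 genes. At an unadjusted p under 0.05 that limma fit gave 2 of the 9 genes higher and 1 lower, and 1597 and 1628 of all genes. There the prior degrees of freedom were 0.639, beside 27.4 with the filter, and the adjusted p was 0.286 for Mdm2, 0.433 for Cdkn1a, 0.210 for Cdkn2c, 0.0990 for Gadd45a and 0.221 for Tp53inp1. When genes averaging under 100 were left out, 0 were lower, because Cdkn2c was not tested.

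With one library left out, over all filters, 0 to 5 of the 9 genes were higher and 0 to 1 lower, and 0 to 1086 of all genes were higher and 0 to 1150 lower. The counts of 0 for all genes came without vehicle 1, vehicle 2 or TMP195 2 at the main filter, where limma gave 1207 to 1374 genes higher and 1299 to 1398 lower at an unadjusted p under 0.05 and the prior degrees of freedom were 1.93 to 3.10. Without TMP195 1 they were 322 and 406. The lone library of a group is assumed to vary like the others. Without vehicle 2 and without genes averaging under 100, the 4 genes called higher were Mdm2, Gadd45a, Tp53inp1 and Ccng1, not Cdkn1a. Without TMP195 2 at that filter Ccng1 was called beside the 4 of the full fit. With genes averaging under 10 or 100 left out, the prior degrees of freedom of the fits without one library were infinite (116 without TMP195 2 at 10), beside 1 residual. The sign turned for Ccng1 without vehicle 1 (-0.0012, against 0.29 without vehicle 2). It also turned without vehicle 2 for Gadd45b (-0.084, against 0.31 without vehicle 1) and Btg2 (0.053, against -0.17 without vehicle 1), at all 3 filters. The cause was not tested.

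The planned edgeR and DESeq2 fits were not run, because some deposited values are fractions of a fragment. Depth limits Cdkn2c most, at 30 to 66 fragments.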
